A study of Homo sapiens with 12 samples.

Results

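The ERK pathway feedback genes described here are 10 genes chosen by name: DUSP4, DUSP5, DUSP6, SPRY1, SPRY2, SPRY4, SPRED1, SPRED2, ETV4 and ETV5. All 10 were found among the 60660 gene identifiers counted, and all 10 were among the 12830 coding genes tested. When CHD4 was knocked down, 9 of the 10 rose (24.0% of all genes tested did) and SPRY1 fell, with SPRY4 8.88-fold and ETV5 7.57-fold higher. When GATAD2A was knocked down, 9 of the 10 rose (15.7% of all genes), and when HDAC2 was knocked down, 9 of the 10 fell (9.0% of all genes). Of these calls, those of DUSP6, SPRY2 and SPRED1 with HDAC2 knocked down, and of SPRED1 with GATAD2A, were each lost with a library left out. With CARM1 or KDM1A knocked down, the share of members called, 2 of 10 each, was near that of all genes (14.5% lower in siCARM1 and 14.2% higher in siKDM1A), and the siCARM1 count was 1 with DESeq2 and 0 without siCTL replicate 2 or siCARM1 replicate 1.

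The RAS-RAF-MEK-ERK cascade carries signals from growth factor receptors to the nucleus, and its kinases are activated by phosphorylation rather than by new transcription. An active cascade also raises the transcription of genes that dampen it. Dual-specificity phosphatases (DUSP proteins) take phosphate off ERK and related kinases, Sprouty (SPRY) proteins interfere with signalling from receptors to RAS and RAF, and SPRED proteins recruit neurofibromin to RAS. ETV4 and ETV5 are ETS transcription factors of the PEA3 group, whose genes are also switched on by the cascade. The mRNA of such genes is therefore often read as a record of pathway output, although ERK activity itself was not measured in these libraries. CIC, a repressor that ERK signalling inactivates, binds an octamer near several of them.

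RNA-seq was performed on 12 libraries of cells that the labels give as HEK293T, a human embryonic kidney line, and the text of the study as HEK293, with 2 libraries in each of 6 groups. The wild-type cells were grown in DMEM with serum and were transfected with control siRNA (siCTL) or with siRNA against CARM1 (siCARM1), an arginine methyltransferase, or against CHD4, HDAC2, GATAD2A or KDM1A (siCHD4, siHDAC2, siGATAD2A, siKDM1A). The last 4 are proteins that the study examined as subunits of NuRD, a chromatin complex with a remodelling ATPase (CHD4), histone deacetylases (HDAC2) and linking subunits (GATAD2A), and KDM1A is a histone demethylase found with it. The question behind the design was which genes CARM1 and these subunits control. The time after transfection is not given in the labels, and the methods list a single siRNA sequence for each of CHD4, HDAC2, GATAD2A and KDM1A, so effects of the siRNA and of losing its target cannot be told apart. Nothing in the labels says that the libraries of a group came from separate cultures, so p-values measure the spread between these libraries, which may be technical.

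The libraries held 19308315 to 28648657 read pairs on genes. Each targeted gene was lowest in its own knockdown. CARM1 was at 25.2 and 23.4 CPM (read pairs of the gene scaled to a common library size) in siCARM1 against 127 and 125 in siCTL, HDAC2 at 40.8 and 41.0 in siHDAC2 against 204 and 212, GATAD2A at 52.7 and 51.0 in siGATAD2A against 182 and 166, and KDM1A at 28.9 and 29.7 in siKDM1A against 180 and 173. CHD4 stood at 26.7 and 27.9 CPM in siCHD4 against 39.5 and 39.7 in siCTL, that is, 68.9% of the control level. It was also called lower in siCARM1, at 32.6 and 30.7 CPM, that is, 80.1% of the control level. In the annotation used here, 46.9% of the exonic bases of CHD4 are shared with ENSG00000285238 on the same strand. Reads there may be missing from the CHD4 count, since the annotation behind the deposited counts is not given. GATAD2A was 2.13-fold higher in siCHD4. Of the markers of the line, VIM, KRT8, KRT18 and NEFL were expressed in every library, while NEFM had 0 to 18 read pairs and PAX2 5 to 55. Of markers of other cells, PTPRC had 0 to 1 read pairs, CD3E 0 to 11, ESR1 0 to 14 and TFF1 0 to 5, whereas GATA3 (3.09 to 4.54 FPKM in group means) and CD44 (1.70 to 8.80 FPKM) were expressed. The log2 fold change of VIM was 0.81 in siCHD4 and −0.64 in siGATAD2A, and that of CD44 was 1.37 and −1.04, so these 2 genes moved in opposite directions where most feedback genes moved together, and their part in the results was not tested.

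Levels are given as CPM when libraries are compared for a single gene, and as FPKM, which also divides by exonic length, when genes are compared. In siCTL the feedback genes were expressed at low to moderate levels. SPRY2 was highest at 7.72 ± 0.273 FPKM (SD, n = 2), followed by SPRED2 at 4.68 ± 0.194, SPRY1 at 4.45 ± 0.0646 and DUSP5 at 4.27 ± 0.286. SPRED2, SPRY1 and DUSP5 lay within about the spread of their libraries of each other. DUSP4 stood at 3.23 ± 0.122 FPKM and SPRED1 at 2.95 ± 0.0737. ETV4, at 1.15 ± 0.103, ETV5, at 0.791 ± 0.0914, SPRY4, at 0.485 ± 0.0405, and DUSP6, at 0.384 ± 0.125, were the lowest, and SPRY4 and DUSP6 did not differ beyond their spread.

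In siCHD4 this order changed. DUSP5 became the highest at 29.9 ± 0.108 FPKM, ahead of SPRY2 at 9.93 ± 0.0549, SPRED2 at 8.92 ± 0.0538, ETV4 at 7.83 ± 0.278 and DUSP4 at 7.73 ± 0.263. ETV4 and DUSP4 did not differ beyond their spread. SPRY1 at 3.19 ± 0.141 FPKM was then lower than every other member but DUSP6, which stood at 1.45 ± 0.110. Genes were tested if their mean exceeded 0.5 FPKM in at least 1 group. SPRY4 and DUSP6 did not pass this filter in siCTL and entered through groups where they were higher, SPRY4 through siCHD4, siGATAD2A and siKDM1A and DUSP6 through siCHD4 and siGATAD2A. With every coding gene that had a count tested instead, 49 of the 50 calls on members were the same.

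**Figure D1:**
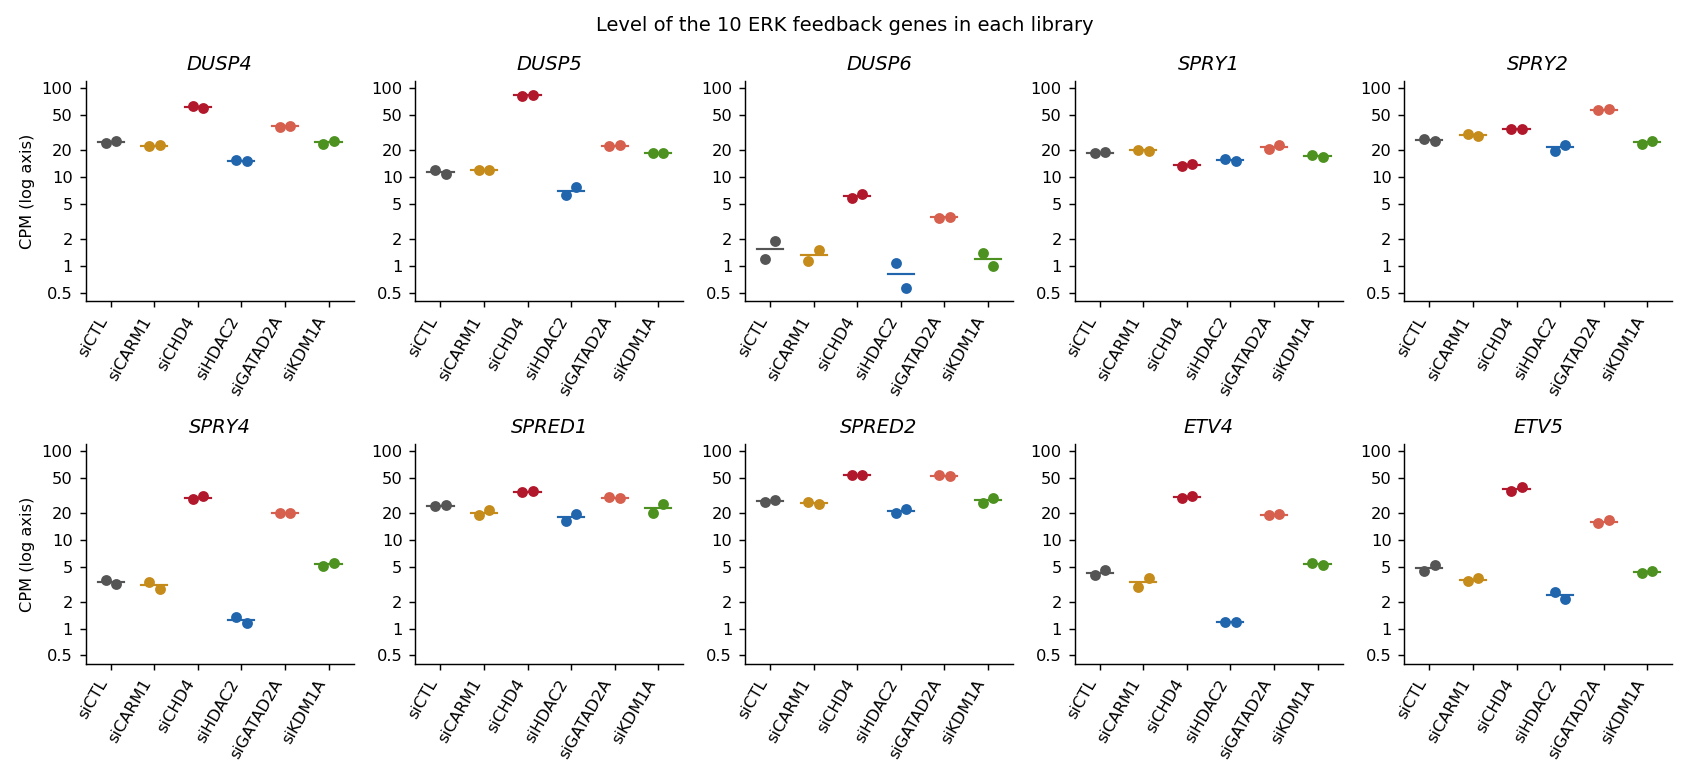
CPM of each feedback gene in every library, on a log axis, by siRNA group. Points are libraries (2 per group) and lines are group means. In siCHD4 and siGATAD2A the points of DUSP4, DUSP5, DUSP6, SPRY2, SPRY4, SPRED1, SPRED2, ETV4 and ETV5 lie above both siCTL points, and in siHDAC2 they lie below them.

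The phosphatase genes came first in the order of the pathway's feedback. DUSP5 encodes a nuclear phosphatase of ERK (ENSG00000138166.6, chr10:112257665-112271291, plus strand, GRCh37). Its level was 11.98 and 10.95 CPM in siCTL, 11.85 and 11.93 in siCARM1, 82.4 and 82.8 in siCHD4, 6.29 and 7.75 in siHDAC2, 22.3 and 22.9 in siGATAD2A, and 18.4 and 18.4 in siKDM1A. Both siCHD4 libraries stood far above all others, both siHDAC2 libraries lay below siCTL, and only siCARM1 overlapped siCTL. By edgeR's quasi-likelihood test, DUSP5 was 7.22-fold higher in siCHD4 (log2 2.85 ± 0.0825 SE, adjusted p = 3.6e-23), 1.97-fold higher in siGATAD2A (adjusted p = 2.5e-10), 1.61-fold higher in siKDM1A (adjusted p = 8.1e-07) and 1.61-fold lower in siHDAC2 (adjusted p = 1.7e-05).

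DUSP4, which encodes an inducible nuclear phosphatase of ERK and other MAP kinases (ENSG00000120875.9, chr8:29190581-29208201, minus strand), had a narrower range. It stood at 24.2 and 25.6 CPM in siCTL, 22.3 and 22.7 in siCARM1, 62.7 and 59.7 in siCHD4, 15.5 and 15.1 in siHDAC2, 36.8 and 37.7 in siGATAD2A, and 23.4 and 25.7 in siKDM1A. The siCHD4 and siGATAD2A libraries were the highest and the siHDAC2 libraries the lowest, while siKDM1A overlapped siCTL. The fold was 2.45 higher in siCHD4 (log2 1.29 ± 0.0709), 1.49 higher in siGATAD2A (log2 0.58 ± 0.0740) and 1.63 lower in siHDAC2 (log2 −0.70 ± 0.0834), with adjusted p of 3.2e-16, 9.8e-08 and 8.3e-08.

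DUSP6 encodes the cytoplasmic phosphatase that is selective for ERK (ENSG00000139318.8, chr12:89741012-89746278, minus strand). It was the member with the fewest reads, with 22 and 42 read pairs in siCTL, 30 and 32 in siCARM1, 131 and 151 in siCHD4, 21 and 15 in siHDAC2, 86 and 80 in siGATAD2A, and 31 and 24 in siKDM1A. In CPM the siCHD4 libraries (5.79 and 6.43) and the siGATAD2A libraries (3.50 and 3.54) stood above siCTL (1.203 and 1.932), and the siHDAC2 libraries (1.08 and 0.559) below it, while siCARM1 (1.14 and 1.53) and siKDM1A (1.42 and 1.01) overlapped siCTL. The log2 fold change was 1.94 ± 0.237 in siCHD4 (edgeR adjusted p = 2.2e-08) and 1.14 ± 0.258 in siGATAD2A (adjusted p = 4.4e-04). In siHDAC2 it was −1.02 ± 0.349 (adjusted p = 0.0222), a call that was lost without siCTL replicate 2 (log2 −0.62, adjusted p = 0.341) or without siHDAC2 replicate 2 (log2 −0.56, adjusted p = 0.323). Of the exonic bases of DUSP6, 28.6% are shared with ENSG00000274021 on the opposite strand. With reads counted without regard to strand, DUSP6 was also called lower in siKDM1A (log2 −1.34, against −0.40 with strand).

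The Sprouty genes did not move together. SPRY4 (ENSG00000187678.10, chr5:141689992-141706020, minus strand) had the largest rise of all members. Its libraries stood at 3.55 and 3.17 CPM in siCTL, 3.35 and 2.81 in siCARM1, 28.7 and 30.9 in siCHD4, 1.34 and 1.16 in siHDAC2, 19.8 and 19.7 in siGATAD2A, and 5.03 and 5.53 in siKDM1A. Only siCARM1 overlapped siCTL, and 23.9-fold separated the highest group mean from the lowest. SPRY4 was 8.88-fold higher in siCHD4 (log2 3.15 ± 0.128), 5.89-fold higher in siGATAD2A (log2 2.56 ± 0.133), 1.58-fold higher in siKDM1A (log2 0.66 ± 0.163) and 2.71-fold lower in siHDAC2 (log2 −1.44 ± 0.219), with edgeR adjusted p of 2.1e-19, 3.6e-16, 0.00157 and 5.7e-06. Ranked by log2 fold change among the 12830 genes tested, SPRY4 held rank 93 from the highest in siCHD4, rank 23 from the highest in siGATAD2A and rank 22 from the lowest in siHDAC2.

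SPRY2 (ENSG00000136158.12, chr13:80910111-80915261, minus strand) was, like SPRY1, highest in siGATAD2A and not in siCHD4. It stood at 26.9 and 25.7 CPM in siCTL, 30.7 and 28.9 in siCARM1, 34.8 and 34.5 in siCHD4, 19.8 and 23.2 in siHDAC2, 56.1 and 58.5 in siGATAD2A, and 23.4 and 25.6 in siKDM1A. No group overlapped siCTL, although the siCARM1 and siKDM1A differences did not pass the test. The fold was 2.18 higher in siGATAD2A (log2 1.13 ± 0.0748, adjusted p = 9.5e-14), 1.32 higher in siCHD4 (log2 0.40 ± 0.0786, adjusted p = 4.5e-05) and 1.21 lower in siHDAC2 (log2 −0.28 ± 0.0833, adjusted p = 0.0100). This last call was lost without siCTL replicate 1 (adjusted p = 0.0748) or without siHDAC2 replicate 1 (log2 −0.18, adjusted p = 0.157).

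SPRY1 (ENSG00000164056.11, chr4:124317950-124324915, plus strand) had the narrowest range of the members. It stood at 18.4 and 18.9 CPM in siCTL, 20.1 and 19.7 in siCARM1, 13.3 and 14.2 in siCHD4, 15.9 and 15.3 in siHDAC2, 20.7 and 23.1 in siGATAD2A, and 17.7 and 16.9 in siKDM1A. It was lowest in siCHD4, the group where every other member rose, and was called there alone, 1.36-fold lower (log2 −0.44 ± 0.0952, adjusted p = 1.7e-04). In siHDAC2 its log2 fold change of −0.26 ± 0.0937 passed the adjusted p (0.0298) and missed the minimum fold of 1.2, at 1.198, and it was called there under 5 of the alternative settings. In siGATAD2A it was 0.23 ± 0.0894 (adjusted p = 0.0336), also under the minimum fold. The whole range of SPRY1 over the groups was 1.59-fold.

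The SPRED genes rose in siCHD4 by less than DUSP4, DUSP5, DUSP6, SPRY4, ETV4 and ETV5. SPRED2 (ENSG00000198369.10, chr2:65537985-65659771, minus strand) stood at 26.4 and 28.2 CPM in siCTL, 26.4 and 25.4 in siCARM1, 53.7 and 53.2 in siCHD4, 19.8 and 22.4 in siHDAC2, 52.9 and 52.5 in siGATAD2A, and 25.8 and 29.6 in siKDM1A. The siCHD4 and siGATAD2A libraries were almost at the same height, and those of siCARM1 and siKDM1A overlapped siCTL. Its log2 fold change was 0.97 ± 0.0742 in siCHD4 (adjusted p = 1.0e-12), 0.95 ± 0.0741 in siGATAD2A (adjusted p = 4.0e-12) and −0.37 ± 0.0825 in siHDAC2 (adjusted p = 8.1e-04).

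SPRED1 (ENSG00000166068.13, chr15:38545037-38649450, plus strand) stood at 23.7 and 24.7 CPM in siCTL, 18.9 and 21.5 in siCARM1, 34.1 and 34.9 in siCHD4, 16.2 and 19.7 in siHDAC2, 29.8 and 29.2 in siGATAD2A, and 19.7 and 25.4 in siKDM1A. The siCHD4 and siGATAD2A libraries lay above siCTL, those of siCARM1 and siHDAC2 below it, and the siKDM1A libraries lay on either side of it. The log2 fold change was 0.51 ± 0.0955 in siCHD4 (adjusted p = 2.5e-05), 0.29 ± 0.0969 in siGATAD2A (adjusted p = 0.0137), −0.42 ± 0.103 in siHDAC2 (adjusted p = 0.00205) and −0.26 ± 0.102 in siCARM1 (adjusted p = 0.0328). Of these, the call in siGATAD2A was lost without siCTL replicate 1 or siGATAD2A replicate 1 (adjusted p = 0.0817 and 0.0723), and the call in siHDAC2 without siHDAC2 replicate 1 (adjusted p = 0.0583). The call in siCARM1, a fold of 1.201 against the minimum of 1.2, was lost without siCTL replicate 1, siCTL replicate 2 or siCARM1 replicate 1, with adjusted p of up to 0.251.

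The transcription factor genes were, with SPRY4, the members with the widest range over the groups. ETV4 (ENSG00000175832.13, chr17:41605212-41656988, minus strand) stood at 3.99 and 4.55 CPM in siCTL, 2.97 and 3.72 in siCARM1, 29.2 and 30.7 in siCHD4, 1.19 and 1.19 in siHDAC2, 18.9 and 19.5 in siGATAD2A, and 5.44 and 5.16 in siKDM1A. No group overlapped siCTL, and 25.2-fold separated the highest group mean from the lowest. Its log2 fold change was 2.80 ± 0.122 in siCHD4 (adjusted p = 1.3e-18), 2.16 ± 0.128 in siGATAD2A (adjusted p = 7.1e-15) and −1.85 ± 0.210 in siHDAC2 (adjusted p = 3.8e-08). In siHDAC2 it held rank 10 from the lowest of the 12830 genes. In siCARM1 the value of −0.37 ± 0.169 missed the threshold (adjusted p = 0.0691) and passed it without siCARM1 replicate 2 (log2 −0.53, adjusted p = 0.0359).

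ETV5 (ENSG00000244405.8, chr3:185764103-185828107, minus strand) stood at 4.43 and 5.24 CPM in siCTL, 3.47 and 3.67 in siCARM1, 35.0 and 38.8 in siCHD4, 2.58 and 2.16 in siHDAC2, 15.5 and 16.5 in siGATAD2A, and 4.203 and 4.485 in siKDM1A. The siCHD4 libraries stood well above those of siGATAD2A, siHDAC2 was lowest, and siKDM1A alone overlapped siCTL. The log2 fold change was 2.92 ± 0.119 in siCHD4 (adjusted p = 2.1e-19), 1.72 ± 0.129 in siGATAD2A (adjusted p = 1.5e-12), −1.05 ± 0.180 in siHDAC2 (adjusted p = 2.9e-05) and −0.45 ± 0.164 in siCARM1 (adjusted p = 0.0246). The call in siCARM1 was lost without siCTL replicate 2 (adjusted p = 0.244) or siCARM1 replicate 1 (adjusted p = 0.115). ETV5 shares 2.84% of its exonic bases with DGKG on the same strand, and ETV4 shares 1.93% with DHX8 on the opposite strand.

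**Figure D2:**
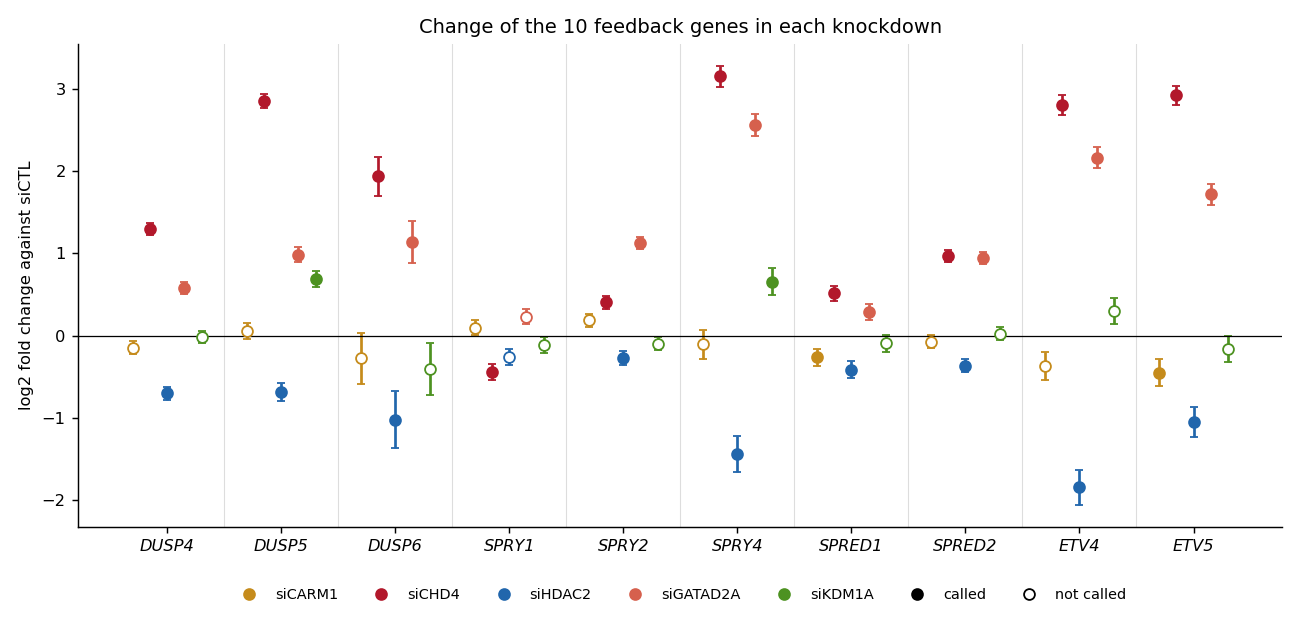
log2 fold change of each feedback gene against siCTL in the 5 knockdowns, with the standard error from the edgeR model as bars. Filled points were called (adjusted p of at most 0.05 and fold of at least 1.2). The siCHD4 points run from −0.44 (SPRY1) to 3.15 (SPRY4), and the siHDAC2 points all lie under 0, down to −1.85 (ETV4).

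Read by knockdown, the count of members can be set beside the share of all genes called the same way. In siCHD4, 9 of 10 members were called higher and 1 lower, while 24.0% of the 12830 genes were called higher and 24.9% lower. In siGATAD2A, 9 members were called higher and 0 lower, beside 15.7% and 18.2% of all genes. In siHDAC2, 9 members were called lower and 0 higher, beside 9.0% and 10.6%. All 10 members had an unadjusted p under 0.05 in each of these 3 comparisons, SPRY1 included. This looser cut was common: of the 98 tested ERK pathway genes described below, 70 met it in siCHD4, 65 in siGATAD2A and 53 in siHDAC2. The share of all genes at this cut is not given here. DESeq2 gave the same counts of members there. The median log2 fold change of the members was 1.61 in siCHD4, 1.05 in siGATAD2A and −0.69 in siHDAC2, and that of all genes lay within 0.01 of 0.

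The other comparisons gave shares near the background. In siCARM1, 2 members were called lower (SPRED1 and ETV5) and 0 higher, beside 14.5% and 14.9% of all genes, with 4 members at an unadjusted p under 0.05. That cut was met by 61 of the 98 tested pathway genes in siCARM1. DESeq2 called 1 member there. In siKDM1A, 2 members were called higher (DUSP5 and SPRY4) and 0 lower, beside 14.2% and 11.5%, and these 2 were the only members at an unadjusted p under 0.05 and those called by DESeq2. Of the 98 tested pathway genes, 52 met that cut in siKDM1A. The median log2 fold change of the members was −0.13 in siCARM1 and −0.06 in siKDM1A. All 5 comparisons share the siCTL libraries, so their values are set side by side here and are not independent.

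Comparisons between knockdowns do not use the siCTL means, although they share knockdown groups with each other. The members were higher in siCHD4 than in siHDAC2 for 9 of 10 genes, and 48.8% of all genes were called in either direction between these groups. SPRY1 was the exception, at −0.18 ± 0.0959 (adjusted p = 0.0990). Between siHDAC2 and siGATAD2A all 10 members were called, each lower in siHDAC2, beside 29.5% of all genes. SPRY4 and ETV4 were 15.9-fold and 16.1-fold lower there. Between siGATAD2A and siKDM1A all 10 were higher in siGATAD2A, beside 32.1% of all genes, from 1.22-fold (DUSP5) to 3.73-fold (SPRY4).

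The siCHD4 and siGATAD2A groups differed for most members even though both stood above siCTL. Of the 10 genes, 6 were higher in siCHD4 and 2 lower, beside 44.8% of all genes called. DUSP5 differed most, 3.66-fold higher in siCHD4 (log2 1.87 ± 0.0727, adjusted p = 7.5e-20), followed by ETV5 (2.31-fold), DUSP6 (1.74-fold), DUSP4 (1.64-fold), ETV4 (1.56-fold) and SPRY4 (1.51-fold). The Sprouty genes SPRY1 and SPRY2 went the other way, 1.59-fold and 1.65-fold lower in siCHD4 (adjusted p = 2.0e-07 and 2.7e-10). For SPRED2 the difference was 0.02 ± 0.0675 on the log2 scale (adjusted p = 0.812), and for SPRED1 it was 0.22 ± 0.0913 (adjusted p = 0.0338), under the minimum fold.

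Against siKDM1A, 7 of the 10 members were lower in siHDAC2, beside 14.3% of all genes called. ETV4 and SPRY4 were furthest apart, at −2.15 ± 0.197 and −2.09 ± 0.195 on the log2 scale, whereas DUSP6, SPRY1 and SPRY2 were not called. Against siCARM1, 8 of the 10 were lower in siHDAC2 (19.3% of all genes called), all but DUSP6 and SPRED1. In siCHD4, 9 members were called against siCARM1, all but SPRY2, and of them SPRY1 alone was lower in siCHD4 (47.7% of all genes called). All 10 were called in siCHD4 against siKDM1A, 9 higher and SPRY1 lower, beside again 47.7% of all genes. Against siCARM1, 9 were higher in siGATAD2A, all but SPRY1 (33.8% of all genes called). The closest pair was siCARM1 and siKDM1A, with 4 members called beside 21.0% of all genes: DUSP5, SPRY4 and ETV4 were lower in siCARM1 and SPRY2 was higher. In all, 84 of the 100 comparisons of a member between knockdowns were called, beside 14.3% to 48.8% of all genes, depending on the pair. The 100 comparisons reuse the same genes and libraries, so they are not independent results.

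**Figure D3:**
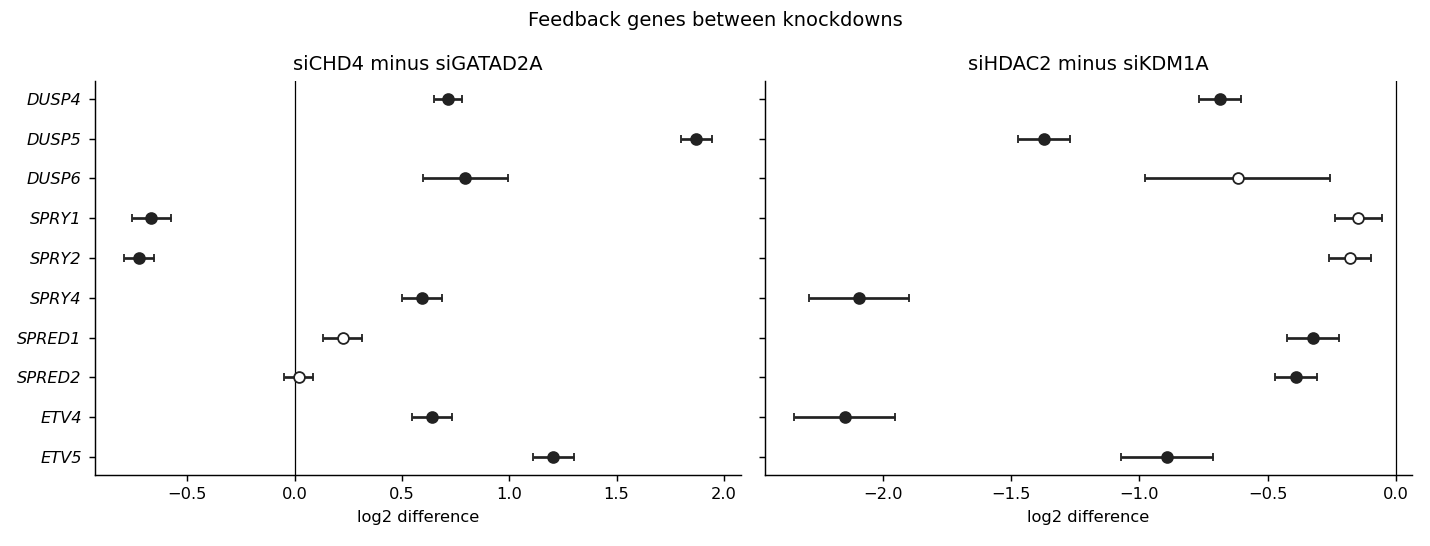
log2 difference of each feedback gene between siCHD4 and siGATAD2A (left) and between siHDAC2 and siKDM1A (right), with standard errors. Filled points were called. On the left DUSP5 lies furthest to the right, at 1.87, and SPRY1 and SPRY2 lie left of 0, while on the right all points lie left of 0, with ETV4 at −2.15.

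The likeness of the members' patterns is given as a description, since the libraries share their groups and the comparisons their normalization. Over the 12 libraries, the log2 CPM of the members other than SPRY1 were correlated with each other at Pearson's r from 0.50 (DUSP5 and SPRY2) to 0.99 (SPRY4 and ETV4). SPRY1 had r from −0.40 (with DUSP5) to 0.46 (with SPRY2). Over the 6 group means, the gene nearest to ETV4 among all those tested was SPRY4 (r = 0.996), which shows how alike these 2 members ran. SPRY4 itself had RNASEH1 as its nearest gene by a small margin, although RNASEH1 ranged over 0.35 on the log2 scale and ETV4 over 4.55. The nearest gene was MAFF for DUSP5 (r = 0.996, range 3.15), PELP1 for DUSP6, MAX for ETV5, TENT4B for SPRED2, DOHH for DUSP4, VTI1A for SPRED1 and UTP18 for SPRY2. With 6 points, 35 to 142 genes reached an r over 0.95 with a given member other than SPRY1, so a high r is not particular to these genes.

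Motif letters upstream of the members were then examined, because most members moved together and CIC binds the octamer TGAATGAA or TGAATGGA. The RefSeq promoter table (250 bases before to 50 after the start, GRCh38.p14) was searched in DUSP6, SPRY1, SPRY2, SPRY4, SPRED1 and SPRED2. The table had no entry for DUSP5, ETV4 or ETV5, so this search did not cover them. None of these 6 windows held either octamer on either strand, beside 1.66% and 1.03% of the 35116 promoters, and none held the ETS letters CCGGAAGT (4.14%), the CRE letters TGACGTCA (1.85%) or the AP-1 letters TGANTCA (7.71%). The 6 windows were 47.7% (SPRY1) to 76.3% (SPRED1) G or C, against a median of 58.7%.

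A wider window of 1000 bases before the start of the canonical transcript on GRCh37 was chosen after this result was seen. In it, 5 of the 10 members held the octamer in either form on either strand (DUSP4, SPRY2, SPRY4, ETV4 and ETV5), beside 10.5% of the 12805 tested genes with such a window. TGAATGAA was found in 2 members (7.36% of genes) and TGAATGGA in 4 (3.62%). The ETS and CRE letters were found in 0 members (8.95% and 4.21% of genes), and the AP-1 letters in ETV5 alone (17.9%). DUSP5, which rose 7.22-fold in siCHD4, held no octamer in this window, and SPRY2, which rose 1.32-fold, held it 954 bases before the start. The stretches around the octamers are shown because they hold the letters, in either form, that these 4 genes have in common, and that of DUSP4 is not shown. Each is read 5′ to 3′ on the strand of the gene, with the octamer in capitals, and TCCATTCA is TGAATGGA on the other strand.
SPRY4, 281 bases before the start, chr5:141704849-141704878, in an exon of the antisense gene SPRY4-AS1: cgccgccgcccTCCATTCAttaaaaaaaaa
ETV4, 280 bases before the start, chr17:41623970-41623999, in an intron of longer ETV4 transcripts: tcggttctttaTGAATGAActccagccgcg
ETV4, 227 bases before the start, chr17:41623917-41623946, in the same intron: agccggagcacTGAATGAAgccgggagcca
ETV4, 111 bases before the start, chr17:41623801-41623830, in the same intron: agccctggggtTCCATTCAcaaaagtcaat
ETV5, 323 bases before the start, chr3:185827183-185827212, in an intron of longer ETV5 transcripts: cgcgttttttaTGAATGAAaaacgtcctta
SPRY2, 954 bases before the start, chr13:80916197-80916226, in no annotated gene: ttcaaaaagccTCCATTCAtagataacccc
ETV4 held 3 of these octamers within 300 bases of its start. The ETV4 and ETV5 stretches also lie in introns of DHX8 and DGKG, which overlap these genes. A match is a run of letters and not a measured site, and binding was not examined here.

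The rest of the pathway was read from a list of 111 genes in 11 roles, of which 98 were tested. In siCHD4 39 of the 98 were called higher and 12 lower, beside 24.0% and 24.9% of all genes. In siGATAD2A 33 were higher and 12 lower, beside 15.7% and 18.2%. In siHDAC2 11 were higher and 18 lower (10.6% and 9.0% of all genes), in siCARM1 21 and 16 (14.9% and 14.5%), and in siKDM1A 18 and 11 (14.2% and 11.5%). The median log2 fold change of the list was 0.12 in siCHD4, 0.12 in siGATAD2A and −0.002 in siHDAC2 beside 1.61, 1.05 and −0.69 for the feedback genes. The list was compiled with earlier results of these data known. Some of its genes, NRG1, TGFA, RASAL1 and ETV1 among them, passed the filter only through groups where they were higher. This favoured calls of a rise.

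Among receptors, ERBB4, a receptor for neuregulins, and FGFR4, a receptor for fibroblast growth factors, were each called higher in 4 knockdowns. ERBB4 had a log2 fold change of 0.005 ± 0.119 in siCHD4, where it was not called, and of 0.82 to 1.16 in the others. FGFR4 had its highest value in siCHD4 (1.24 ± 0.0918) and was not called in siHDAC2. Of the 16 ligands listed, 9 were tested. In siCHD4 5 of these were called higher and 2 lower, beside 24.0% and 24.9% of all genes. In siGATAD2A 7 were called higher and 1 lower, beside 15.7% and 18.2%. NRG1, a neuregulin, was higher in all 5, from 0.42 ± 0.138 in siHDAC2 to 0.96 ± 0.130 in siGATAD2A. TGFA, a ligand of the EGF receptor chosen after its values were seen, was higher in siCHD4 (2.45 ± 0.175), siGATAD2A (1.37 ± 0.195) and siKDM1A (0.62 ± 0.214). EGF and FGF9, also chosen after their values were seen, were lower in siCHD4 (−1.04 ± 0.134 and −1.47 ± 0.281) and higher in siGATAD2A (0.42 ± 0.114 and 0.98 ± 0.205). NRG1 and TGFA were under 0.5 FPKM in siCTL and passed the filter through groups where they were higher. Their rises, and with them the counts of ligands called higher, were therefore favoured by the filter.

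Of the 10 tested adaptors and exchange factors, which link receptors to RAS, 2 were called higher and 3 lower in siCHD4. The shares of all genes there were 24.0% and 24.9%. PTPN11, the phosphatase SHP2 that helps RAS activation, was higher in 4 knockdowns, by 0.32 to 0.40. Of the RAS proteins, MRAS was higher in siCHD4 (1.48 ± 0.0722), siKDM1A (0.76 ± 0.0758), siGATAD2A (0.47 ± 0.0773) and siHDAC2 (0.29 ± 0.0788). The RAS GTPase activators RASA3 and RASAL1 were higher in 4 knockdowns each, with the largest values for RASAL1 (1.60 ± 0.216 in siCHD4 and 1.52 ± 0.218 in siGATAD2A). RASAL1 was under 0.5 FPKM in siCTL and also passed the filter through groups where it was higher. DAB2IP, another activator of this kind, was lower in 4 knockdowns, by 0.27 to 0.36.

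The 7 genes for RAF, MEK and ERK kinases had small changes. In siCHD4 and in siKDM1A 0 of them reached the minimum fold in edgeR's test, although 4 had an unadjusted p under 0.05 in siCHD4 and 3 in siKDM1A. That cut was met by 70 and 52 of the 98 tested list genes in these 2 groups. The log2 fold changes in siCHD4 ran from −0.18 (ARAF) to 0.24 (MAP2K1). ARAF was lower in siCARM1 (−0.34 ± 0.0537), and BRAF was higher in siGATAD2A (0.28). The scaffold PEA15, which holds ERK in the cytoplasm, was higher in siCHD4 (0.51 ± 0.0493) and siGATAD2A (0.36 ± 0.0495) and lower in siHDAC2 (−0.31 ± 0.0514) and siCARM1 (−0.26 ± 0.0511). Of the 8 kinases activated by ERK, 4 were called higher and 1 lower in siCHD4, beside 24.0% and 24.9% of all genes. In siGATAD2A 2 were called higher and 2 lower, beside 15.7% and 18.2%. RPS6KA5, which codes for a kinase of histones and CREB, was lower in siGATAD2A (−0.62 ± 0.0913) and siCHD4 (−0.45 ± 0.0901).

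Among the pathway's transcription factors, ELK4 was higher in all 5 knockdowns, by 0.35 to 0.54. ETV1, the remaining gene of the PEA3 group and chosen after its values were seen, had 40 and 34 read pairs in siCTL, 127 and 118 in siCHD4, 71 and 78 in siGATAD2A, and 14 and 21 in siHDAC2. It was higher in siCHD4 (1.52 ± 0.225) and siGATAD2A (0.77 ± 0.244) and lower in siHDAC2 (−1.29 ± 0.324), the same directions as ETV4 and ETV5. ETV1 passed the filter of 0.5 FPKM through siCHD4 alone, the group where it was highest, so its rise there was favoured by the filter. It was also lower in siCARM1 (−1.63 ± 0.340) and siKDM1A (−0.73 ± 0.299). CIC mRNA was lower in siCARM1 (−0.28) and siKDM1A (−0.48) and was not called in siCHD4 (0.05), siGATAD2A (−0.18) or siHDAC2 (−0.15).

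Other genes induced by ERK did not follow a single direction. EGR1, an immediate early gene, stood at 97.02 and 90.02 CPM in siCTL, 45.4 and 46.0 in siCHD4, 49.2 and 48.7 in siGATAD2A, 66.6 and 64.9 in siHDAC2, and 72.5 and 69.0 in siKDM1A. It was lower in siCHD4 and siGATAD2A, where most feedback genes were higher, with log2 fold changes of −1.03 ± 0.0571 and −0.93 ± 0.0565. IER3, another early response gene, was higher in siGATAD2A (1.70 ± 0.0719), siCHD4 (1.39 ± 0.0732), siKDM1A (1.19 ± 0.0742) and siCARM1 (0.71 ± 0.0766). FOSL1, chosen after its values were seen, was higher in siCHD4 (2.59 ± 0.136), siGATAD2A (0.63 ± 0.161) and siKDM1A (0.47 ± 0.165). Of the 7 genes of this kind, 3 were higher and 2 lower in siCHD4, beside 24.0% and 24.9% of all genes. In siGATAD2A 3 were higher and 3 lower (15.7% and 18.2%), and in siHDAC2 0 and 4 (10.6% and 9.0%).

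The other feedback inhibitors were 11 tested genes outside the 10. In siCHD4 7 of the 11 were higher, beside 24.0% of all genes. In siHDAC2 1 was higher and 5 lower, beside 10.6% and 9.0%, and in siGATAD2A 3 were higher and 3 lower, beside 15.7% and 18.2%. DUSP8, a phosphatase of stress kinases, was higher in siGATAD2A (1.32 ± 0.101), siKDM1A (0.83 ± 0.104), siCHD4 (0.71 ± 0.105) and siHDAC2 (0.31 ± 0.109). DUSP9, a cytoplasmic phosphatase of ERK close to DUSP6, was lower in siGATAD2A (−0.99 ± 0.0702), siHDAC2 (−0.65 ± 0.0685), siKDM1A (−0.59 ± 0.0682) and siCARM1 (−0.42 ± 0.0671). In siGATAD2A the DUSP9 and DUSP6 genes thus moved in opposite directions.

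**Figure D4:**
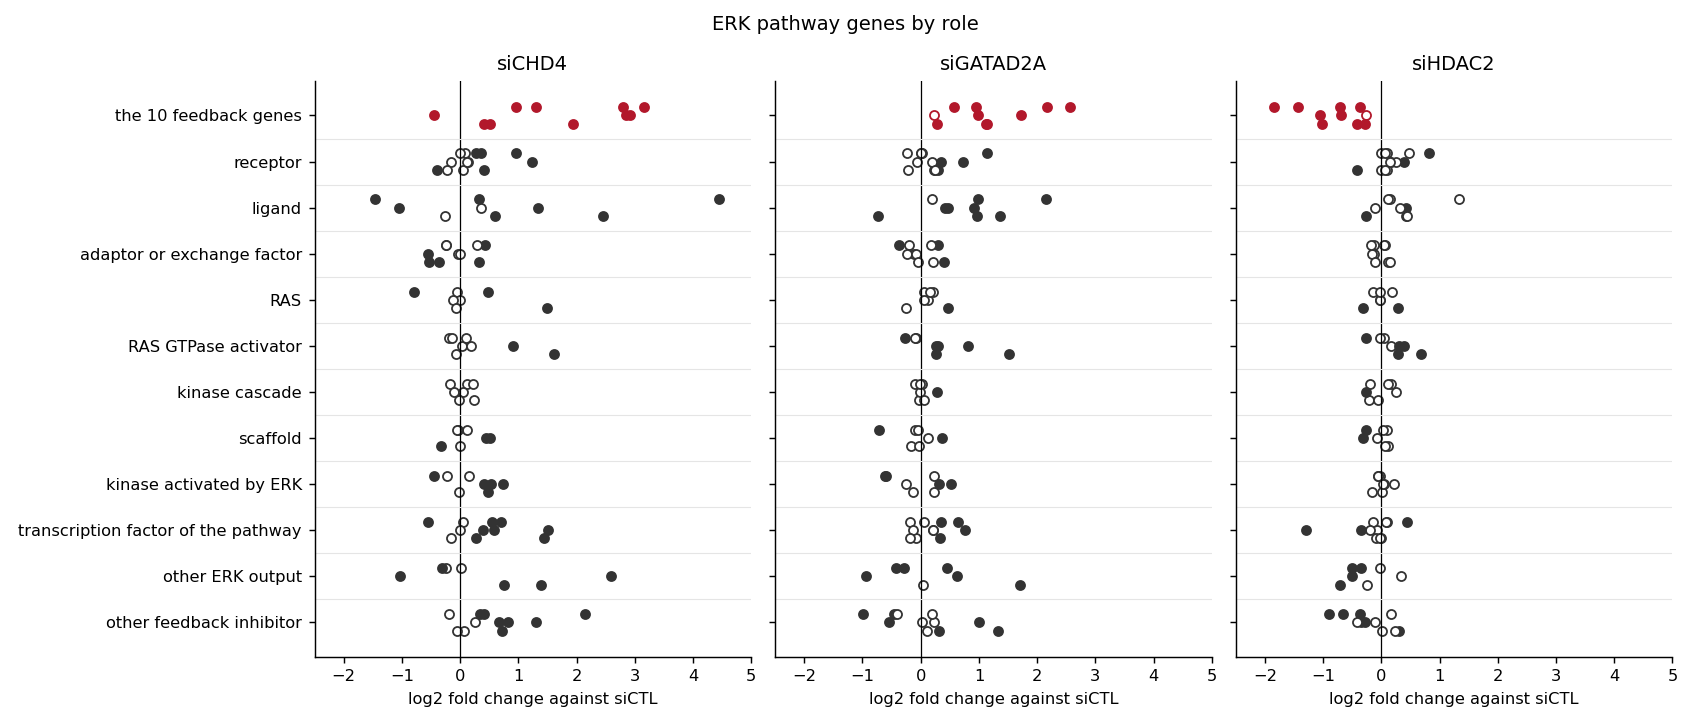
log2 fold change against siCTL of the 10 feedback genes (red) and of 98 other ERK pathway genes by role (black) in siCHD4, siGATAD2A and siHDAC2. Each point is a gene, and filled points were called. The 7 kinases of the cascade lie close to 0 in each panel, while the feedback genes reach 3.15 in siCHD4, 2.56 in siGATAD2A and −1.85 in siHDAC2.

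A level in bulk RNA is an average over cells, so a change in the number of expressing cells and a change in RNA per cell cannot be told apart. The labels' library protocol names 2 sequencing providers without saying which library went to which, so the provider and the siRNA groups could not be separated. With 2 libraries a group, the smallest p of an exact two-sided permutation test is 0.333, so the tests rest on the spread that edgeR estimated across genes and groups.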

How the data were processed

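RNA-seq counts of 12 libraries were used. Per library, the deposited values are unnormalized counts for each Ensembl gene in 3 columns by strand, and the submitters' processing notes name STAR 2.7.10, CASAVA 1.4 and hg19. The annotation release is not given in the sources used here. Counts of the reverse strand (directional kit) were taken; the opposite strand held 7.93% to 8.40% as many. Identifiers were matched to GENCODE 44 on GRCh37 (58662 matched, 96.7%), and unmatched ones were left out. Coding genes over 0.5 FPKM in the mean of at least 1 group were tested with edgeR 4.0.16 (TMM, quasi-likelihood, 6 group means, Benjamini-Hochberg). Called means adjusted p of at most 0.05 and fold of at least 1.2. The fits were tested on simulated data. Libraries of a group differed by more than sampling noise (chi-square per degree of freedom 1.77 to 4.97). The members, lists and motifs were chosen with earlier results of these data known. Named were all members, the 5 targets, list genes called alike in at least 4 knockdowns or largest in a role without one, and the nearest genes of each member called in at least 3; others are marked as chosen later, and some list genes are not reported here. Alternatives were RLE size factors, DESeq2 1.42.0, a replicate block, only the groups compared, unstranded counts, 3 other filters, no fold minimum and each library left out. Promoter sequences are from RefSeq.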

Additional observations from a re-analysis of the deposited data

Results flagged for a closer look

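For 9 of the 10 feedback genes, the effects of 2 knockdowns differed in direction, since both were called against siCTL in opposite directions. Of all genes tested, 9.47% were called in both directions among the 5 knockdowns, which share the siCTL libraries. The calls of DUSP6, SPRY2 and SPRED1 in siHDAC2 were each lost with a library left out. The pairs were picked for this, so the differences are given as sizes with standard errors and no p. Between siCHD4 and siHDAC2 the difference on the log2 scale was 4.65 ± 0.151 for ETV4, 4.59 ± 0.149 for SPRY4, 3.97 ± 0.131 for ETV5, 3.54 ± 0.0870 for DUSP5, 2.96 ± 0.265 for DUSP6, 1.999 ± 0.0747 for DUSP4, 1.33 ± 0.0753 for SPRED2 and 0.93 ± 0.0974 for SPRED1. For SPRY2 the widest pair was siGATAD2A and siHDAC2, at 1.404 ± 0.0753. In each case both libraries of the higher group lay above both libraries of the lower group. Since only pairs with called differences were picked, such separation was close to given and adds no support.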

How the results depend on the processing

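In siCARM1 the count of members called was 2 and became 1 with DESeq2, with the replicate block, with only the groups compared and with a filter of FPKM over 1, and 0 to 3 with a library left out. It was 0 without siCTL replicate 2 and 0 without siCARM1 replicate 1. The replicate block changed no other count of members, and the numbers did not pair the samples (r of same-numbered deviations −0.14 to 0.14 over 15 pairs of groups, 1 over 0.1). With no fold minimum, the pathway list had 48 genes called in siHDAC2 (29 with it) and 46 in siKDM1A (29 with it), because the minimum fold then removes no gene. With a library left out, members called ranged from 10 to 10 in siCHD4, 7 to 8 in siHDAC2, 8 to 9 in siGATAD2A and 2 to 3 in siKDM1A, and 82 to 84 between knockdowns. When a library was left out, the lone library of its group was assumed to vary like the other groups. No called value changed direction, and 13 values that were not called changed sign. Identity between the members' proteins was planned and not run. The lowest counts, those of DUSP6, limit its precision.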
